A study of Rattus norvegicus with 48 samples.

Results

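Amot, Amotl1 and Amotl2 encode the 3 angiomotins, and together with Ajuba and Axl they form a set of 5 genes around the Hippo pathway at cell junctions. They were taken by symbol, with earlier results of these data known, and matched to the Ensembl identifiers of the count files. All 5 were among the 13050 of 32624 features that were tested, which are those with a read in every sample. The RNA came from cerebral endothelial cells (CECs) of the cortex of male Wistar-Han rats, which were purified by magnetic sorting as CD31-positive cells after depletion of CD11b-positive microglia, with cortices pooled before digestion. Rats had free access to food (AL, ad libitum) or were fasted for 1 day (F1), 2 days (F2) or 3 days (F3), with no other treatment and no genetic change in any group, and the age of the animals is not given in the sources used here. Each group had 3 samples from independent experiments, with the letter i, j or k as the name of a sample, and its 4 technical replicates were summed. Of F1 sample k, technical replicate d has a title and a treatment label that name different fasts, and it was kept in F1 by its title.

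The Hippo pathway is a kinase cascade that keeps the transcriptional coactivators YAP and TAZ out of the nucleus. In the nucleus, YAP and TAZ bind the TEAD factors and turn on target genes. Angiomotins are scaffolds of tight junctions and of actin filaments that bind YAP directly, and in endothelial cells they are known for roles in migration, in vessel shape and in the link of cadherin junctions to actin. Ajuba is a LIM domain protein of junctions that binds the LATS kinases and lowers their activity, and Axl is a receptor tyrosine kinase for the ligand Gas6. Amotl2, Ajuba and Axl are also known as target genes of YAP and TAZ in several cell types.

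Depth was similar among samples, from 20718644 to 25960874 assigned reads. Pecam1, which encodes the sorting antigen CD31, had 34031 ± 2260 normalized counts (SD, n = 12). Here a normalized count is a read count scaled to the mean effective library size. The 4 endothelial markers with an identifier, of 10 in the list, were Pecam1, Abcb1a, Bsg and Slco1a4, and all were tested. Of these, Slco1a4, an organic anion transporter, was called lower in F1 (-0.36, adjusted p = 0.0340) and F3 rats (-0.43, adjusted p = 0.00846) by edgeR's test on the log2 scale, and the other 3 were not called in any comparison with AL. Markers of other cells were also read. The 3 pericyte markers with an identifier, of 9 in the list, summed to 6.85% to 20.6% of the normalized counts of Pecam1, a ratio without correction for gene length, and the only smooth muscle marker with an identifier, Acta2, reached 0.325% to 1.15%. Of the 6 listed astrocyte markers, 2 are given here, Aldoc and Atp1b2, which summed to 6.48% to 11.98% and were not called in any comparison with AL. The 6 microglial markers with an identifier, of 11, reached at most 0.393%. The single genes from the lists of fibroblasts, oligodendrocytes and red blood cells stayed at or below 1.27% and no neuronal or venous marker of the lists had an identifier. Each of these markers was read in every sample, as the filter required of all genes tested. F2 sample j stood apart, with the lowest value of the 12 samples in 20.9% and the highest in 20.1% of genes tested, against 5.02% to 10.8% for each of the other samples.

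All 5 genes had at least 1 promoter window in the RefSeq table of the GRCr8 assembly, which holds the 250 bases before and the 50 bases after each start. The count files are based on another assembly, Rnor_6.0, and give no positions. Windows of Amot, Amotl2 and Ajuba are shown because Amot is the gene that changed during fasting and because the other 2 hold the letters to which TEAD factors are known to bind. Capitals mark these letters (GGAATG, which reads CATTCC on the opposite strand). The Amot window is chrX:113837797-113838096 on the minus strand, the Amotl2 window chr8:112182376-112182675 on the plus strand and the Ajuba window chr15:31999993-32000292 on the minus strand, each written 5′ to 3′ in the direction of the gene.
Amot: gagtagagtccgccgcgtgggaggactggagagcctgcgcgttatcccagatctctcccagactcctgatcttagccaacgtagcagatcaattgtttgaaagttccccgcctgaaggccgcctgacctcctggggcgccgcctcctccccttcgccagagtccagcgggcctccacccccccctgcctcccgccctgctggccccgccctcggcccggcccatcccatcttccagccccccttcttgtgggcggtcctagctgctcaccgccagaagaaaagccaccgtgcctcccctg
Amotl2: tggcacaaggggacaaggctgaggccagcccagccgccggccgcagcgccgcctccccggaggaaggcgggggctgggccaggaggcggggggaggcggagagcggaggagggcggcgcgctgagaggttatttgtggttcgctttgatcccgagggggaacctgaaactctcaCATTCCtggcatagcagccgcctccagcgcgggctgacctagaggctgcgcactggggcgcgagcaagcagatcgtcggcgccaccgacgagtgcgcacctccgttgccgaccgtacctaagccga
Ajuba: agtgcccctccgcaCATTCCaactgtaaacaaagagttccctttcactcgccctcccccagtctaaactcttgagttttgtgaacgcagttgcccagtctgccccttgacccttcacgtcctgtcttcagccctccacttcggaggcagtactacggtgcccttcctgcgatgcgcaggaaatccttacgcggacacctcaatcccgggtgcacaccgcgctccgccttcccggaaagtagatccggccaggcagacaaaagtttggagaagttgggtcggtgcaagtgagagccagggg
The match began 76 bases before the start in Amotl2 and 236 bases before it in Ajuba. Among the first windows of 27457 rat genes, 13.9% held these letters on either strand. No window of Amot, Amotl1 or Axl held them. The letters of an AP-1 site (TGANTCA, searched on both strands) were in 7.33% of the windows of all genes and, among the 5 genes, only in Amotl1, 93 bases before its first start. A match describes the sequence and is not a measured binding site, and the windows carry no measurement of binding in these samples.

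Amot was lower in CECs of fasted rats on each day, with a call in F1 and F3 rats only. In AL rats it had 1684, 1648 and 1841 normalized counts (samples i, j and k). The values were 1236, 1389 and 1278 in F1 rats, 1371, 1157 and 1534 in F2 rats, and 1200, 1369 and 1292 in F3 rats. All 9 fasted samples lay below all 3 AL samples. In this direction, 14.1%, 8.66% and 18.0% of genes tested had no overlap with AL in F1, F2 and F3 rats. The group means were 1724 ± 103 in AL, 1301 ± 79.3 in F1, 1354 ± 189 in F2 and 1287 ± 84.8 in F3 rats (SD, n = 3 each), so that the 3 fasted groups were within their spread of each other.

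In edgeR's quasi-likelihood test, with p-values adjusted over all genes by the Benjamini-Hochberg method, Amot fell by 0.41 ± 0.10 (SE) on the log2 scale in F1 rats (adjusted p = 0.0259) and by 0.42 ± 0.10 in F3 rats (adjusted p = 0.0131), to 24.5% and 25.4% below AL. In F2 rats the log2 fold change (LFC) was -0.35 ± 0.10, with an adjusted p of 0.130 that misses the threshold of 0.05. Between days of fasting, the LFC of Amot was 0.06 ± 0.10 for F2 against F1, -0.07 ± 0.10 for F3 against F2 and -0.02 ± 0.10 for F3 against F1, none past the threshold (adjusted p 0.702 to 0.996). The joint test of the 4 groups gave an adjusted p of 0.0274. Fewer cells of a type and less RNA per cell cannot be told apart in these bulk samples. Amot's LFC lay between -0.46 and -0.36 for F1 with any 1 sample left out, but the call was lost without AL sample i or k or without F1 sample i, j or k (adjusted p 0.0568 to 0.0975). For F3 the range was -0.47 to -0.37, and the call was lost without AL sample k or F3 sample i (adjusted p 0.0543 and 0.0700). For F2 the range was -0.45 to -0.25, without a call in any of these fits (adjusted p 0.0581 to 0.454). The joint call was lost without AL sample i, j or k, F1 sample i or F3 sample i or k (adjusted p 0.0501 to 0.129).

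**Figure D1:**
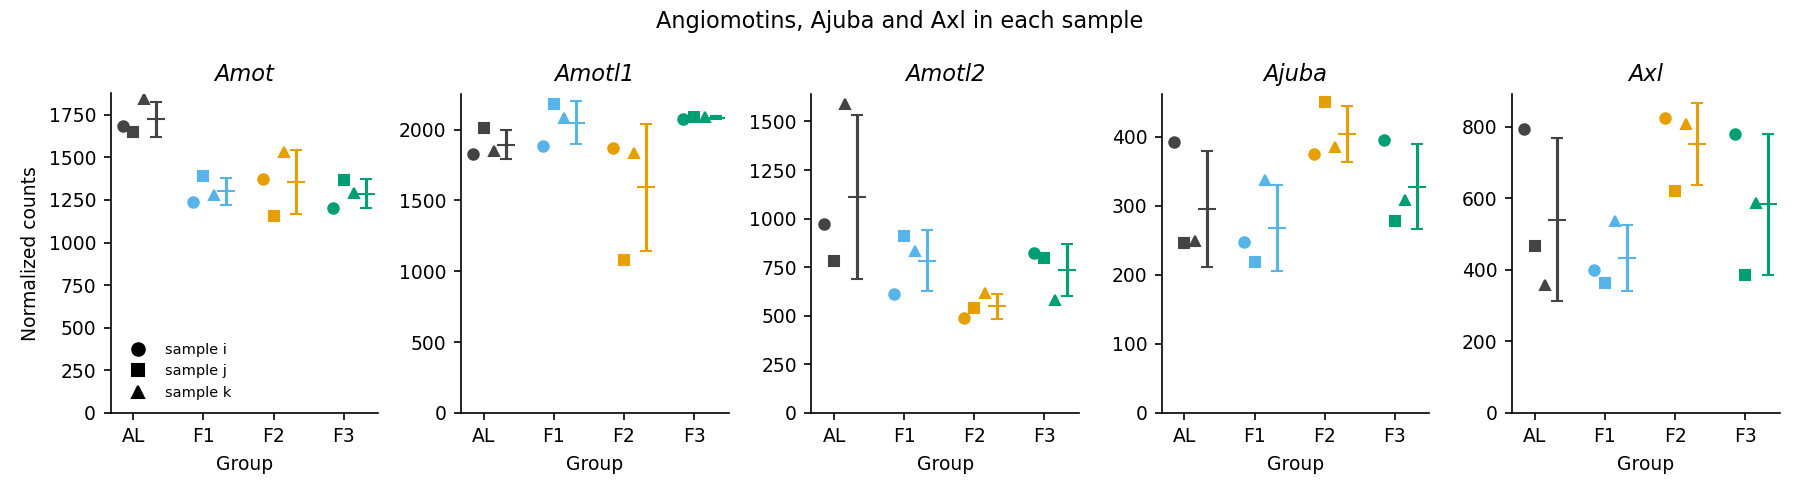
Normalized counts (y axis, from 0) of Amot, Amotl1, Amotl2, Ajuba and Axl in the 3 samples of each group (x axis), with the letter of the sample as the symbol and the group mean ± SD beside the points. All fasted samples of Amot lie below the lowest AL sample at 1648, Amotl1 has a single low sample at 1077, and the F2 samples of Amotl2 lie between 486 and 614.

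Amotl1 did not pass the threshold in any comparison. It had 1825, 2009 and 1850 normalized counts in AL rats and 1887, 2180 and 2081 in F1 rats. In F2 rats the values were 1869, 1077 and 1832, and in F3 rats 2072, 2091 and 2086. Apart from F2 sample j, which lay at 58.2% of the mean of the other two F2 samples, the 12 samples stayed between 1825 and 2180. The LFC was 0.11 ± 0.15 in F1, -0.25 ± 0.15 in F2 and 0.14 ± 0.15 in F3 rats (adjusted p 0.525 to 0.731). F3 samples did not overlap with AL samples, as was the case in this direction for 17.6% of genes tested, and all were above the F2 samples, as for 14.7% of genes. Without F2 sample j, the LFC of F2 against AL was -0.03 ± 0.07.

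Amotl2 had the lowest values in F2 rats. Its normalized counts were 970, 781 and 1589 in AL rats and 610, 908 and 835 in F1 rats. They were 486, 542 and 614 in F2 rats and 825, 800 and 579 in F3 rats. The F2 samples did not overlap with the AL samples, as was the case in this direction for 8.66% of genes tested. F1 and F3 samples overlapped with both. AL sample k, at 1589, was 181% of the mean of the other two AL samples. The means were 1113 ± 422 in AL, 784 ± 155 in F1, 548 ± 64.3 in F2 and 735 ± 135 in F3 rats (SD, n = 3 each).

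The LFC of Amotl2 was -0.50 ± 0.23 in F1 (adjusted p = 0.227), -1.02 ± 0.23 in F2 (adjusted p = 0.0587) and -0.60 ± 0.23 in F3 rats (adjusted p = 0.113), so that edgeR's test called none of them. The Wald test of DESeq2, which called 2.75% of all genes in F2 against AL, gave the same F2 difference an adjusted p of 0.00121. Without AL sample k, the LFC was -0.68 ± 0.18 in F2 (adjusted p = 0.228), -0.16 ± 0.18 in F1 and -0.26 ± 0.18 in F3 rats. Without AL sample j, the F2 difference was -1.23 ± 0.22 and passed (adjusted p = 0.0200), as did F3 at -0.80 (adjusted p = 0.0350). Between fasted groups the differences of Amotl2 were -0.52 ± 0.23 for F2 against F1 and 0.42 ± 0.23 for F3 against F2 (adjusted p 0.271 and 0.304).

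**Figure D2:**
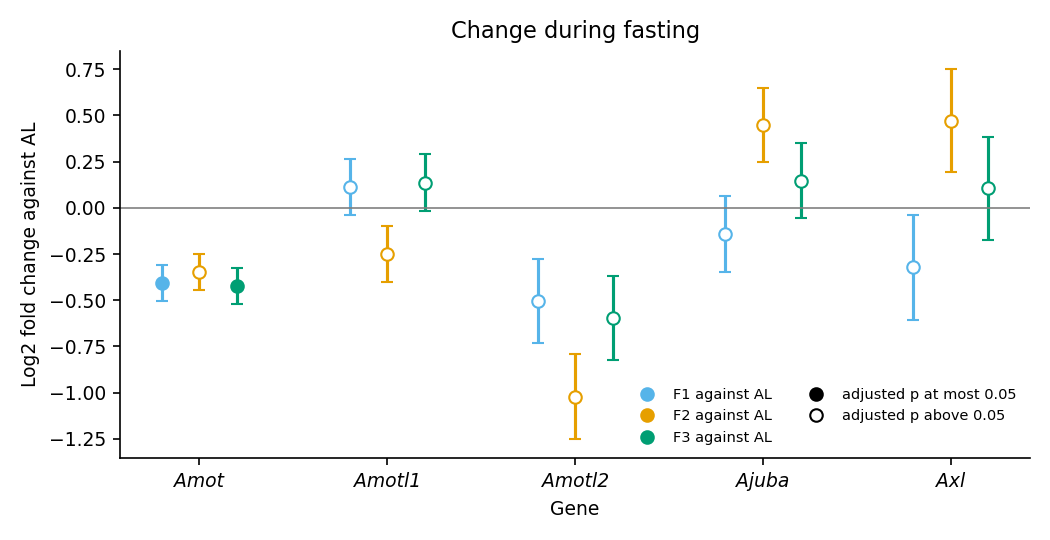
Log2 fold change against AL (y axis, ± SE) of each gene (x axis) in F1, F2 and F3 rats, filled where edgeR's adjusted p was at most 0.05. Amot in F1 (-0.41) and F3 (-0.42) are the filled points, and Amotl2 in F2 has the lowest value (-1.02) with an open point.

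Ajuba was highest in F2 rats, without a call. Its normalized counts were 392, 246 and 249 in AL rats, 248, 219 and 338 in F1 rats, 376, 451 and 386 in F2 rats, and 396, 277 and 309 in F3 rats. All F2 samples were above all F1 samples, which held for 9.75% of genes in this direction, but AL sample i and F3 sample i lay above F2 samples i and k and below F2 sample j. The LFC against AL was -0.14 ± 0.21 in F1, 0.45 ± 0.20 in F2 and 0.15 ± 0.20 in F3 rats (adjusted p 0.370 to 0.746), and F2 exceeded F1 by 0.59 ± 0.20 (adjusted p = 0.154). Without AL sample i the difference of F2 from AL was 0.71.

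Axl followed the same order of groups. It had 795, 467 and 359 normalized counts in AL rats and 399, 364 and 538 in F1 rats. In F2 rats the counts were 826, 621 and 809, and in F3 rats 779, 385 and 586. The AL and F3 samples spread over nearly the whole range, with sample i highest in both groups. Only F2 against F1 showed no overlap, as was the case in this direction for 9.75% of genes tested. Its LFC was -0.32 ± 0.28 in F1, 0.47 ± 0.28 in F2 and 0.11 ± 0.28 in F3 rats (adjusted p 0.512 to 0.860), and 0.79 ± 0.28 for F2 against F1 (adjusted p = 0.168). The difference of F2 from AL was 0.87 without AL sample i and 0.25 without AL sample k.

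In each of F1 and F3 against AL, 1 of the 5 genes, Amot, was called, as lower. Of all genes tested, edgeR called 2.64% lower and 3.92% higher in F1, and 5.73% lower and 6.28% higher in F3 rats. In F2 against AL none of the 5 was called, with 0.920% of all genes. None was called in F2 against F1 (1.34% of all genes), F3 against F2 (5.88%) or F3 against F1 (0.00%). At an unadjusted p under 0.05, the numbers of the 5 genes were 3 in F2 against AL, 4 in F2 against F1, 1 in F3 against F2 and 0 in F3 against F1, against 13.0%, 17.4%, 22.1% and 4.49% of all genes. In F1 and F3 against AL it was 2 of the 5 in each, with 2713 and 3398 of the 13050 genes. DESeq2 called 1 of the 5 in F2 against AL, Amotl2, and none in F2 against F1, F3 against F2 or F3 against F1, where it called 4.72%, 9.52% and 0.184% of all genes. The joint test called Amot alone, against 9.98% of all genes. The comparisons of F1, F2 and F3 with AL share their AL samples, so their values are not independent.

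The ratio of 2 angiomotins within a sample does not depend on library size. The log2 ratio of Amot reads to Amotl1 reads was -0.12, -0.29 and -0.01 in AL rats, -0.61, -0.65 and -0.70 in F1 rats, -0.45, 0.10 and -0.26 in F2 rats, and -0.79, -0.61 and -0.69 in F3 rats. All F1 and F3 samples lay below all AL and F2 samples. The 4 groups differed by an exact permutation test over the 369600 assignments of the 12 samples (F = 9.65, p = 0.0107, 0.0321 after adjustment over the 3 ratios). Relative to AL, the mean log2 ratio differed by -0.52 in F1, by -0.06 in F2 and by -0.56 in F3 rats. For pairs of groups, the exact permutation test of 3 against 3 samples, two-sided, cannot go below p = 0.1, which it reached for F1 and F3 against AL and against F2. The F2 mean of -0.20 ± 0.28 (SD, n = 3) rests in part on sample j, in which Amotl1 was low, and without it the test of the 4 groups gave F = 18.6 with an adjusted p of 0.00506. With the samples permuted only within each letter, the adjusted p was 0.135. It rose above 0.05 without AL sample i or k, any 1 F1 sample, F2 sample k or any 1 F3 sample (0.0505 to 0.0908).

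The log2 ratio of Amot to Amotl2 was 0.70 ± 0.44 in AL, 0.75 ± 0.23 in F1, 1.30 ± 0.20 in F2 and 0.82 ± 0.31 in F3 rats (SD, n = 3 each). F2 samples did not overlap with AL or F1 samples, and the joint permutation test, exact over the same assignments, gave p = 0.163 (adjusted 0.216). For Amotl1 to Amotl2 the means were 0.83 ± 0.58 in AL, 1.40 ± 0.20 in F1, 1.50 ± 0.48 in F2 and 1.52 ± 0.29 in F3 rats. The exact permutation test gave p = 0.216 (adjusted 0.216). The joint test of the 4 groups passed the threshold for neither of these 2 ratios.

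**Figure D3:**
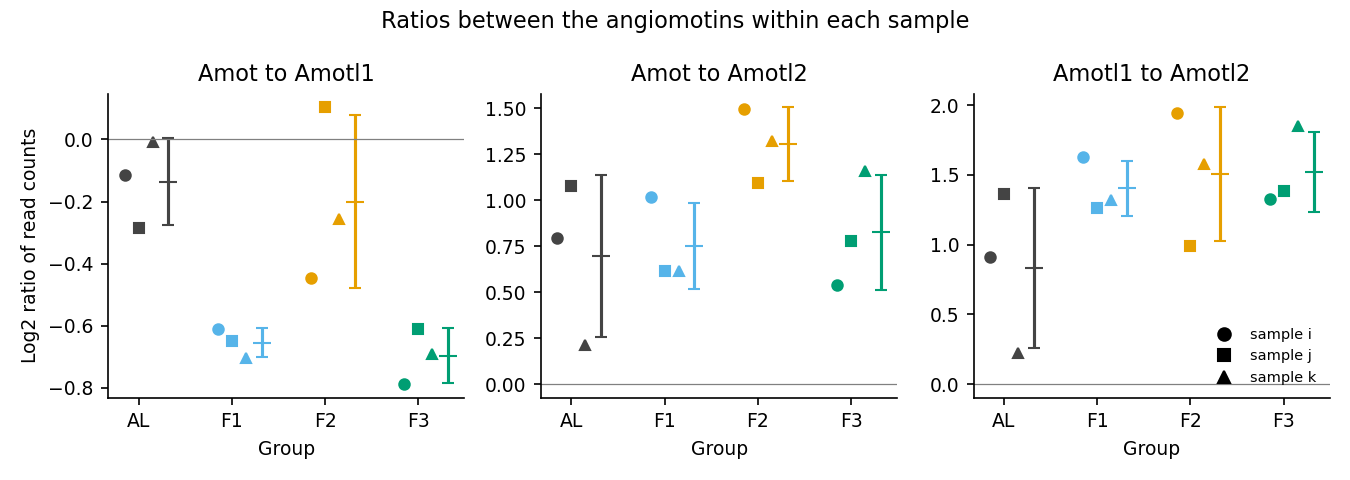
Log2 ratio of read counts (y axis) of Amot to Amotl1, Amot to Amotl2 and Amotl1 to Amotl2 in each sample by group (x axis), with group mean ± SD beside the points. In the first panel the F1 and F3 samples lie between -0.79 and -0.61, and the AL and F2 samples between -0.45 and 0.10.

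Axl varied with markers of mural cells, which line the capillaries outside the endothelium. The 3 pericyte markers (Abcc9, Anpep and Atp13a5) summed to 2555 to 6301 normalized counts in AL, 2801 to 3134 in F1, 3396 to 6636 in F2 and 2268 to 6184 in F3 rats, and none of the 3 was called in any comparison with AL. Across the 12 samples, the log2 level of Axl and the log2 of this sum had a Pearson r of 0.935 and a Spearman correlation of 0.888. The r was 0.928 for deviations from the group means and 0.910 without the 2 samples farthest from the median of the sum (AL sample i and F2 sample k). Both values of a point come from the same library. The pattern was not confined to pericyte markers, but the astrocyte markers given here differed in it. Atp1b2, from the astrocyte list, had 1638, 865 and 623 normalized counts in AL and 807, 794 and 825 in F1 rats. It had 1609, 1100 and 1530 in F2 and 1441, 599 and 1043 in F3 rats. Within each group, samples i, j and k had the same order for Atp1b2 as for Axl. Aldoc, from the same list, had the order of Axl only in AL rats (2155, 1956 and 1825). It had 1702, 1950 and 2277 normalized counts in F1, 1530, 2239 and 1864 in F2, and 1566, 1545 and 1588 in F3 rats. For Ajuba the same r was 0.679, with 0.549 for deviations and 0.596 without the 2 samples. For Amot, Amotl1 and Amotl2 the r was 0.04, -0.02 and -0.34. As deviations it was -0.01, 0.42 and -0.24, and without the 2 samples -0.31, 0.02 and -0.46. Ajuba and Axl correlated with r = 0.880 across samples and 0.795 as deviations from group means.

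**Figure D4:**
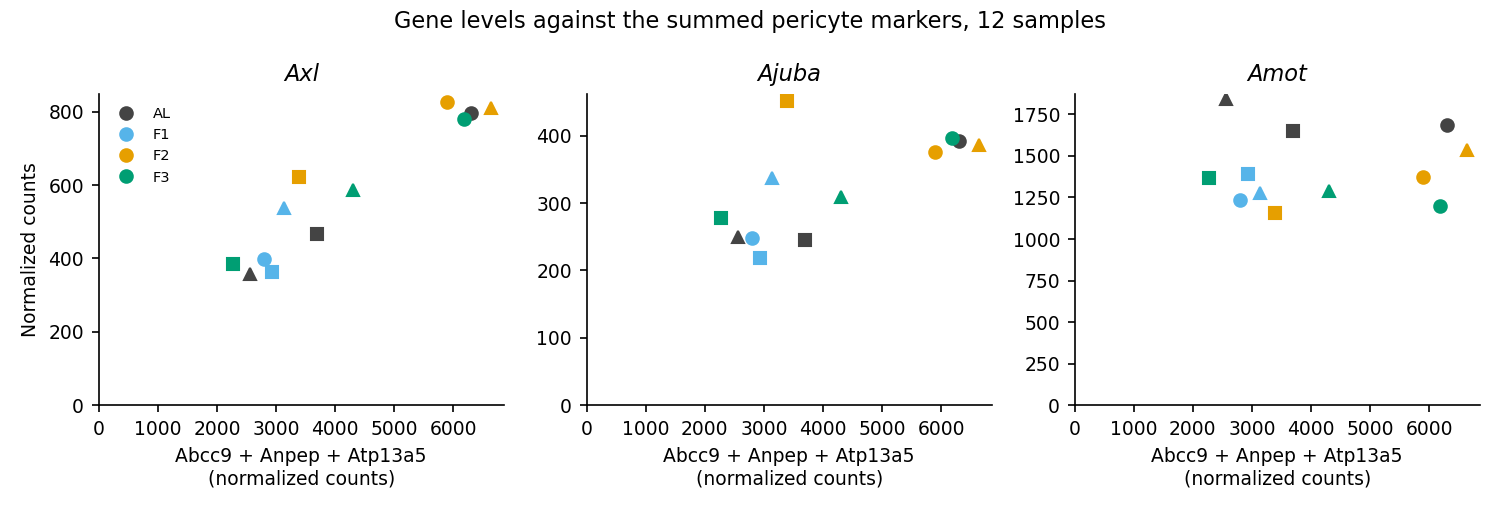
Normalized counts of Axl, Ajuba and Amot (y axes) against the sum of the pericyte markers Abcc9, Anpep and Atp13a5 (x axis, normalized counts), 1 point per sample, coloured by group, with the letter as the symbol. Across the 12 samples Axl rises along the sum (r = 0.935 on the log2 scale), Ajuba less closely (0.679), and Amot does not (0.04).

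A covariate of mural markers was then added to the model, as the mean log2 CPM (read counts scaled to a common library size) of Anpep, Atp13a5, Abcc9 and the smooth muscle gene Acta2 in each sample. With it, the LFC of Axl against AL was -0.02 ± 0.10 in F1, 0.08 ± 0.10 in F2 and 0.04 ± 0.10 in F3 rats, and that of F2 against F1 was 0.10 ± 0.12 in place of 0.79 ± 0.28. Ajuba became -0.01 ± 0.17, 0.27 ± 0.17 and 0.11 ± 0.16 in F1, F2 and F3 rats. Amot kept its LFC and its calls, with -0.42 ± 0.10 in F1 (adjusted p = 0.0322) and -0.42 ± 0.10 in F3 rats (adjusted p = 0.0178). Amotl2 was at -0.91 ± 0.26 in F2 rats (adjusted p = 0.193).

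**Figure D5:**
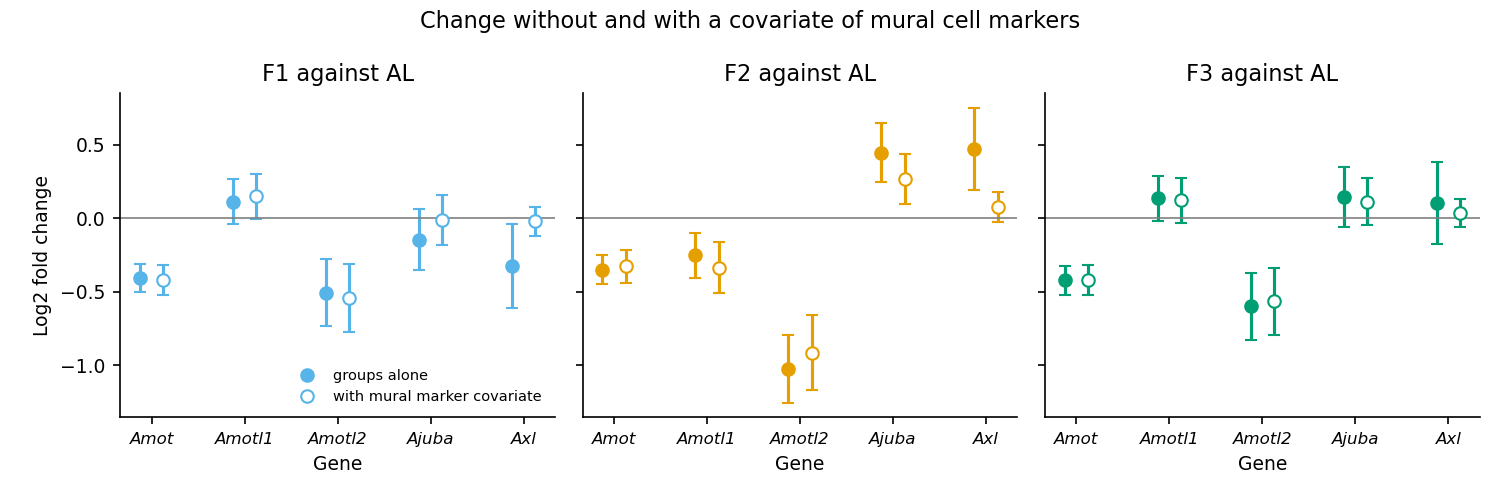
Log2 fold change against AL (y axis, ± SE) of the 5 genes (x axis) in F1, F2 and F3 rats, from groups alone (filled) and with the covariate of mural cell markers (open). Axl in F2 moves from 0.47 to 0.08 with a smaller SE, while Amot in F1 and F3 stays near -0.42.

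By similarity across the 12 samples, among 1146 other genes with a symbol and a mean of at least 100 normalized counts, the genes nearest to Axl were Ccdc80 (r = 0.982), which encodes a matrix protein, Bgn (0.967), which encodes the matrix proteoglycan biglycan, and the pericyte marker Anpep (0.962). Their r as deviations from group means was 0.963 to 0.979. Nearest to Ajuba were Axl, Car2 (0.853), a carbonic anhydrase, and C1qtnf1 (0.853). As deviations, the r was 0.730 for Car2 and 0.781 for C1qtnf1. Amot was most similar to Slc6a6 (0.902), the taurine transporter, Arhgef5 (0.878) and Bcorl1 (0.867), a corepressor. Their r as deviations was lower, at 0.849 for Slc6a6, 0.759 for Arhgef5 and 0.514 for Bcorl1. In AL, F1, F2 and F3 rats Arhgef5 spanned 3646 to 3989, 2741 to 2891, 2756 to 3661 and 2572 to 2957 normalized counts. Amotl2 was most similar to Aagab (0.830), Angel1 (0.800) and Aplnr (0.790), the receptor of apelin in endothelial cells. As deviations, these were 0.875, 0.797 and 0.703.

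Those nearest to Amotl1 were Cbl (0.942), a ubiquitin ligase, Atxn1 (0.941) and Ankrd52 (0.935), and all 3 had their lowest value in F2 sample j. Cbl had 265 normalized counts there against 648 to 941 in the other 11 samples. Without that sample the r with Amotl1 was 0.442 for Cbl, 0.415 for Atxn1 and 0.681 for Ankrd52, so that these similarities rest largely on it.

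Of 26 YAP and TAZ target genes listed, 8 had an identifier, among them Amotl2, Ajuba and Axl. Of the 5 others, none was called in F1 or F2 rats and only Ankrd1, which encodes a nuclear ankyrin repeat protein, was called lower in F3 rats. Ankrd1 was read at a low level, with 23, 19 and 19 normalized counts in AL and 9, 8 and 12 in F3 rats, an LFC of -1.06 ± 0.30 (adjusted p = 0.0388). In F1 and F2 rats its LFC was -0.31 ± 0.29 and 0.29 ± 0.27. The remaining 4 targets, Asap1, Arhgef17, Ccdc80 and Birc5, had LFCs from -0.67 to 0.42 without a call. The lowest was that of Birc5 in F1 rats (SE 0.53), a gene with only 2 to 8 normalized counts per sample. Over the 8 genes the median LFC was -0.36, 0.30 and -0.02 in F1, F2 and F3 rats, while that of all genes tested was within 0.01 of 0. How far the median of any 8 genes would stray from 0 was not tested, and neither was a cause. The median LFC of the 3 pericyte markers was -0.50, 0.33 and 0.00 on the same days. Across the 12 samples the r with the sum of these markers was 0.935 for Axl, 0.969 for Ccdc80, 0.961 for Arhgef17 and 0.679 for Ajuba, and between -0.34 and 0.27 for the other 4 targets. Of 28 genes of the Hippo kinases and effectors only Btrc, a subunit of the ubiquitin ligase that degrades YAP, had an identifier, and its LFC was between -0.09 and 0.00 without a call.

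Among partners of angiomotins and enzymes of their turnover, 4 of 19 had an identifier, and 1 was called higher on each day. This was Baiap2, an adaptor that links Rac and Cdc42 to actin, which rose by 1.17 ± 0.10 in F1 (adjusted p = 1.02e-04), 0.76 ± 0.10 in F2 (adjusted p = 0.00431) and 1.31 ± 0.11 in F3 rats (adjusted p = 1.94e-05). Arhgap17, whose protein binds Amot, was at 0.12, 0.00 and 0.18, and Actn4 and Baiap2l1 were likewise not called. Of 19 genes of endothelial junctions and polarity, 3 had an identifier (Afdn, Arvcf and Amotl1), and none was called. Afdn, the junction adaptor afadin, had an LFC of 0.13 ± 0.11, 0.02 ± 0.11 and 0.22 ± 0.11 in F1, F2 and F3 rats.

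For the receptor family of Axl, its ligands and the proteases that release its ectodomain, 3 of 7 genes had an identifier. Adam17, which encodes a protease known to cut Axl from the cell surface, had 6548, 6619 and 7060 normalized counts in AL rats. It had 5491, 4974 and 5244 in F1 rats, 5474, 4803 and 5038 in F2 rats, and 4633, 4736 and 4615 in F3 rats. No fasted sample reached the AL range, and Adam17 fell by 0.36 ± 0.07 in F1 (adjusted p = 0.00867), 0.40 ± 0.07 in F2 (adjusted p = 0.0177) and 0.53 ± 0.07 in F3 rats (adjusted p = 3.97e-04). Adam10, the other protease of this kind, was at -0.01, -0.12 and -0.03 with no call.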

How the data were processed

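The authors aligned reads of strand-specific poly(A) libraries with STAR, removed reads that matched the rat genome more than once (Rnor_6.0 per the labels, annotation of Ensembl version 91) and deposited raw counts of reads on exons per gene from HTSeq 0.5.3, which were not normalized. How strand was treated in counting is not given in the sources used here, so reads of genes that overlap on opposite strands may be shared. Amot, Amotl1, Amotl2, Ajuba, Axl and all lists were chosen with earlier results of these data known. Symbols came from shortened supplementary tables, which paired 2043 of the 13050 tested features, so list counts cover mostly symbols early in the alphabet. Some items are not reported here.

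Counts were summed over 4 technical replicates per sample. Genes read at least once in every sample were tested with edgeR 4.0.16 in R 4.3.3 (TMM, quasi-likelihood, 1 model of 12 samples, Benjamini-Hochberg over 13050 genes, threshold 0.05). Standard errors of the LFC are from the same model. The test was checked on simulated counts with 200 changed genes. P-values measure the spread between samples of pooled animals. Similarity was computed on log2 CPM (prior count 2); names of clones were excluded. The genes named are the 5 genes, listed genes past the threshold against AL, a few others by mean level, and the 3 most similar genes to each; the rest of a list of 5 or fewer was added after the values were seen. Ratios of summed counts were tested by exact permutation. Alternatives were other scalings (DESeq2 size factors, total counts, upper quartile), DESeq2 1.42.0, other filters, only the groups compared, the sample letter as a block, mural markers, the technical replicate with conflicting labels left out, a threshold of 0.01, each sample left out and, added after seeing the data, edgeR's robust estimate of the spread.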

Additional observations from a re-analysis of the deposited data

How the results depend on the processing

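The number of the 5 genes called stayed the same in 151 of 174 comparisons of an alternative with the reported count. Total counts, DESeq2 and the lack of a filter each called 1 gene, Amotl2, in F2 against AL and 2, Amot and Amotl2, in the joint test. At a threshold of 0.01 there were 0 calls in F1, in F3 and in the joint test. With 1 sample left out, calls ranged from 0 to 1 in F1, 0 to 1 in F2, 0 to 2 in F3 and 0 to 1 in the joint test. The robust estimate of the spread changed no call.

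Samples of the same letter had correlations of their deviations from -0.02 to 0.14 (median 0.03), over 0.1 in 3 of 18 pairs. For different letters they were -0.19 to 0.20 (median -0.03), over 0.1 in 1 of 36 pairs. Of the 12 samples, 5 correlated best with their own letter. Whether samples of a letter share an experiment is not given in the sources used here, and these weak correlations cannot settle it. With the replicate block, Amot kept its calls (-0.40 in F1 and -0.42 in F3), and the 5 genes gave 1, 0 and 1 calls in F1, F2 and F3 and 1 in the joint test. For the ratio of Amot to Amotl1, assignment within letters gave F = 11.5 (adjusted p = 0.135), and leaving out 1 sample gave F from 7.37 to 18.6. The other two ratios stayed above 0.05 throughout.

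Direction turned only in values without a call. Amot in F3 against F1 was 6.6e-05 with total counts, and Amotl1 there was -0.027 with mural markers. Leaving out 1 sample gave LFCs in F1 of -0.34 to 0.12 (Ajuba) and -0.55 to 0.068 (Axl), in F2 of 0.32 to 0.71 (Ajuba) and 0.25 to 0.87 (Axl), without a change of direction, and in F3 of -0.015 to 0.41 (Ajuba) and -0.16 to 0.50 (Axl). Amot ranged from -0.041 to 0.16 in F2 against F1, from -0.17 to 0.026 in F3 against F2 and from -0.062 to 0.034 in F3 against F1, where Amotl1 ranged from -0.033 to 0.070 and Amotl2 from -0.25 to 0.053. The causes were not tested. With 3 samples per group, how far the spread between samples and the depth each set the SE of these genes was not tested.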
